A study of Mus musculus with 18 samples.

Results

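Gene expression was compared between mouse embryonic stem cells (ESCs) that carried a constitutively active form of ezrin and the same line after the first 24 h of exit from naive pluripotency. The members are the 6 iEZR_CA libraries of these 2 time points, chosen by sample label from the 18 libraries of the series, with 3 libraries in the ESC group (wells B12, E12 and H12) and 3 in the T24 group (wells C12, F12 and G9). The other 12 libraries are the 48 h samples of the same line and the ESC, T24 and T48 samples of wild-type (WT) E14TG2a cells, and of these the WT ESC and T24 groups are used to test where the change differed between the lines. iEZR_CA cells are E14 ESCs with a PiggyBac transgene in which doxycycline switches on a phosphomimetic ezrin followed by an IRES and mCherry. Both iEZR_CA groups carried the transgene and had been given doxycycline about 16 h before exit. The ESC group was in N2B27 with 2i+LIF, which is a MEK/ERK inhibitor, a GSK3 inhibitor and the cytokine leukaemia inhibitory factor (LIF). The T24 group had been in N2B27 alone for 24 h, on gelatin-coated plates. The sources used here do not say whether doxycycline was kept during exit and name none for the WT cells, so the line and the drug cannot be told apart in any difference from WT. The T24 libraries were also further from the start of doxycycline than the ESC libraries. Within the line, the time of exit and the time since doxycycline was given therefore cannot be told apart. Whether the line is a single clone is not given in the sources used here.

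Naive ESCs keep an identity close to the pre-implantation epiblast through a network of transcription factors that includes NANOG, ESRRB, KLF4 and TFCP2L1. Blocking MEK keeps the fibroblast growth factor (FGF)/ERK cascade silent, blocking GSK3 protects β-catenin and relieves repression by TCF7L1, and LIF acts through STAT3. When these are withdrawn the naive network is taken down, OTX2, POU3F1 and the de novo DNA methyltransferases are switched on, and the cells pass into a formative state from which they can enter the germ layers. Ezrin, radixin and moesin (the ERM proteins) tie the plasma membrane to the cortical actin network when they are phosphorylated, and a phosphomimetic ezrin stays in the open, linking form.

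Levels are given as normalised read counts, that is, gene counts divided by DESeq2 size factors, in the order of the wells named above. Log2 fold changes (T24 over ESC) and Benjamini-Hochberg adjusted p-values come from edgeR's quasi-likelihood test over all 18469 genes that passed a filter on low counts, and a gene is said to have risen or fallen where its adjusted p is under 0.05. Counts on genes ran from 15074458 to 25148241 in the ESC libraries and from 15200664 to 26989941 in the T24 libraries. Mitochondrial transcripts took 0.899% to 0.940% of gene counts in the ESC libraries and 0.765% to 0.857% in the T24 libraries, without overlap. The study describes the libraries of a group as independent biological replicates, while the labels name no culture or passage, and the p-values measure the spread between these libraries. With 3 libraries against 3, the smallest p an exact permutation test of a single gene can give is 0.1. Well G9 lies in another plate column than the other 5 wells, and leaving it out changed the number of members called in a list by at most 1 in either direction.

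Ezrin transcripts were slightly lower after the 24 h, and remained the most abundant of the ERM transcripts per length. The normalised read count of Ezr (ENSMUSG00000052397, GRCm38 chromosome 17, 6738041 to 6782784, minus strand) was 25358, 24372 and 24728 in the ESC libraries and 21299, 20185 and 20894 in the T24 libraries. All 3 T24 libraries lay below the lowest ESC library. The means were 24819 ± 499 and 20793 ± 564 (SD, n = 3 each), a ratio of 0.838 (exact permutation test, two-sided p = 0.1, the smallest possible), and the log2 fold change was -0.26 with a standard error of 0.025 (edgeR, adjusted p = 2.4e-14). Scaled instead to the ERCC spike-in transcripts, which were added to each library, the ratio was 0.926, the groups overlapped and the call was lost (exact permutation test, two-sided p = 0.2). Reads from the transgene and from the endogenous gene are not separated in these counts. Rdx, which encodes radixin, did not pass the test (6259, 6362 and 6133 against 6407, 6521 and 6386, log2 fold change 0.04). Msn, which encodes moesin, fell from 8051 ± 171 to 6052 ± 155 (edgeR, log2 fold change -0.42, standard error 0.036, adjusted p = 1.6e-11), a call lost under ERCC scaling with an adjusted p of 0.084. Per kilobase of exon, Ezr stood at 7544 normalised counts in the ESC group and 6320.1 at T24, Msn at 1273 and 956, and Rdx at 1348 and 1388.

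Of 23 genes for ERM proteins, their kinases and partners and the class I myosins, 7 rose and 10 fell at T24 (median log2 fold change -0.12), and under ERCC scaling 4 fell and the median was 0.03. Over all genes tested 56.0% were called, 27.1% upwards and 28.9% downwards, and the counts of every list below are to be read beside these shares. Pdzk1, a PDZ scaffold of microvilli, had the lowest fold change among them, with counts of 58.7, 68.6 and 75.6 in the ESC libraries and 8.09, 9.88 and 12.2 at T24 (edgeR, log2 fold change -2.7, standard error 0.24, adjusted p = 6.5e-16). The class I myosins, which link membrane to actin independently of the ERM proteins, were divided. Myo1c fell from 3854 to 2425, Myo1a and Myo1e also fell, Myo1f rose from 293 to 495, and Myo1d and Myo1g did not pass. Myo1h passed on a few reads, at 0, 0.837 and 1.4 against 5.4, 4.56 and 3.75, a ratio of group sums of 6.3 (counting interval 1.45 to 57.1). Podxl, a sialomucin that binds ezrin through its PDZ adaptors, rose from 342 to 714 (edgeR, log2 fold change 1.05, standard error 0.066, adjusted p = 1e-20). Those adaptors rose too, Slc9a3r1 (NHERF1) from 2585 to 3784 and Slc9a3r2 (NHERF2) from 511 to 785. Among the kinases that phosphorylate ERM proteins, Stk10 rose from 321 to 578, Slk fell from 2238 to 1946, and Rock1 and Rock2 did not pass, with log2 fold changes of -0.06 and -0.12. Nf2, which encodes the ERM relative merlin, rose from 6775 to 9577, and Rhoa, the GTPase that activates the ROCK kinases, fell from 6495 to 5123.

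Over the whole transcriptome the change was broad and mostly small. Of 18469 genes tested, 5009 rose and 5331 fell. More than 2-fold changes were called in 2750 genes (14.9%), 1526 up and 1224 down, and more than 4-fold changes in 1014, 600 up and 414 down. Of the genes called, 57.1% had changed by less than 1.5-fold. The median log2 fold change over all genes was -0.01 (quartiles -0.27 and 0.31). When libraries were scaled to the ERCC transcripts this median moved to 0.14, the genes called numbered 6593, and the share of them that was higher at T24 went from 48.4% to 68.9%. Beyond 2-fold the same change of scaling moved the count to 2785 and the share higher at T24 from 55.5% to 64.8%. Gene counts per ERCC count ran from 91.3 to 98.4 in the ESC libraries and from 95.8 to 111.3 at T24, so the groups overlapped. ERCC scaling thus adds spread between libraries as well as a shift, and which of these removed a call was not tested. Small falls are given here as falls relative to the other transcripts of a library. Whether the amount of RNA per cell changed was not tested. In bulk RNA, fewer cells that express a gene and less of its RNA in each cell cannot be told apart.

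**Figure D1:**
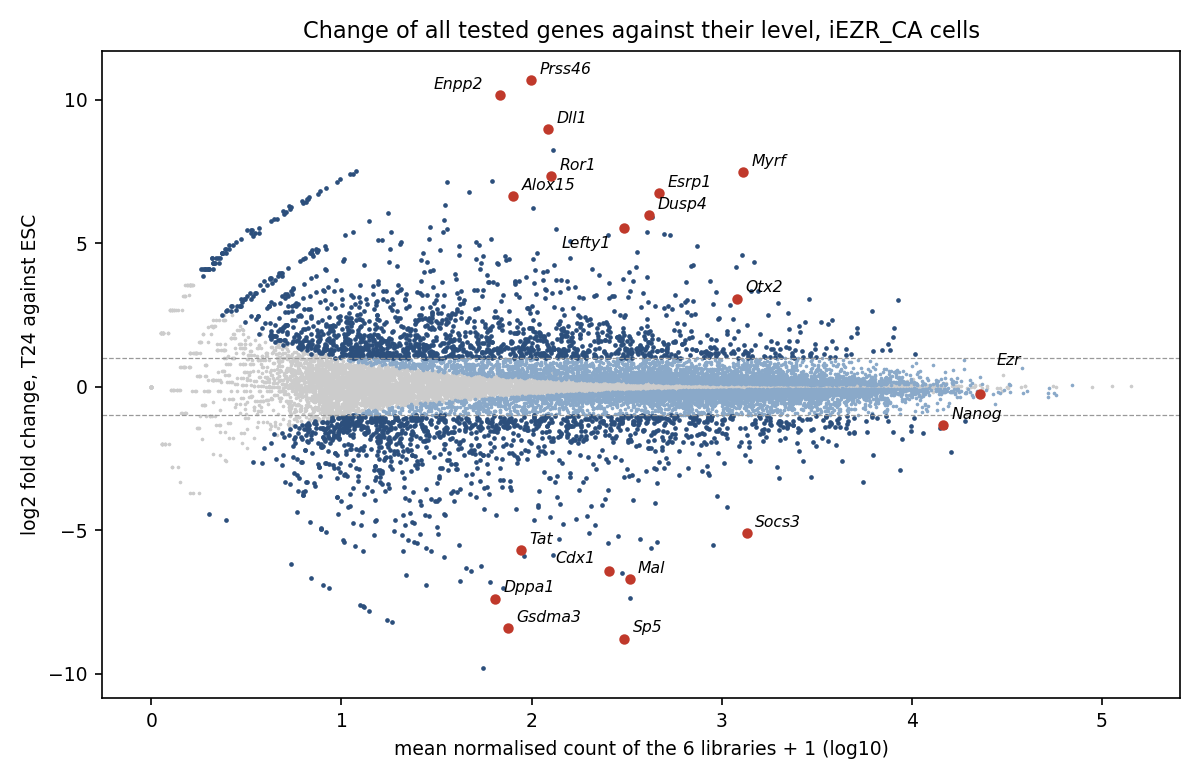
Log2 fold change (T24 over ESC, vertical axis) of each tested gene in iEZR_CA cells against the log10 of its mean normalised read count over the 6 libraries plus 1 (horizontal axis). Dark blue points passed the test beyond 2-fold (dashed lines), light blue points passed it with a smaller change, grey points did not pass, and red points are labelled genes of the text, with Myrf high at the upper right and Sp5 near the lower edge.

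The largest rises, among coding genes with a mean normalised count of at least 50 and groups that did not overlap, started from almost nothing. Prss46, a serine protease gene of the testis, had no read in any ESC library and stood at 208, 185 and 201 at T24, at least 59.1-fold higher when the ESC group is set to a floor of 3 counts per library. Enpp2 encodes autotaxin, the secreted enzyme that makes lysophosphatidic acid. It had no read in the ESC libraries, 124, 159 and 121 at T24, and was at least 40.2-fold higher. Dll1, a Notch ligand, went from 0, 0 and 1.4 to 264, 245 and 214. Its group sums were 1 read and 747, a ratio of 672 with a 95% counting interval from 120.3 upwards. Cass4, a Cas-family adhesion scaffold, stood at 0, 0.837 and 1.4 and 269.8, 254 and 249, a ratio of 359.6 (counting interval 99.2 to 2975). Ror1, a receptor for WNT5A, went from 2.21, 1.67 and 0 to 274, 264 and 213, a ratio of 175 (counting interval 68.1 to 644). The counting intervals cover counting error only. Alox15, a lipoxygenase, rose from a mean of 1.58 to 157, and Slc35d3, of the nucleotide sugar transporter family, from 2.51 to 199.8.

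Myrf and Esrp1 were the rises of this kind with the most reads. The membrane-bound transcription factor gene Myrf (ENSMUSG00000036098, chromosome 19, 10208272 to 10240748, minus strand) had normalised counts of 14.4, 13.4 and 15.4 in the ESC libraries and 2630.4, 2571 and 2545 at T24. No library of either group came near the other group, and the log2 fold change was 7.49 (standard error 0.075, edgeR, adjusted p = 1.1e-67). Esrp1, a regulator of epithelial splicing, went from 5.54, 10 and 9.8 to 913, 937 and 929 (edgeR, log2 fold change 6.74, standard error 0.13, adjusted p = 2.7e-47).

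The largest falls, by the same rule, included the WNT targets Sp5 and Cdx1, described with that pathway, and 8 genes of varied function. Mal, which encodes a lipid raft proteolipid, dropped from 694, 661 and 589 to 6.74, 4.56 and 7.5 (edgeR, log2 fold change -6.72, standard error 0.18, adjusted p = 3.9e-39). Slc28a3, a nucleoside transporter, stood at 280.2, 223 and 253 before exit and 6.74, 3.04 and 3.75 after it (edgeR, log2 fold change -5.87, standard error 0.25, adjusted p = 7.3e-30). Tat, the tyrosine aminotransferase gene, had 168, 190 and 154 and 5.4, 0.76 and 4.69 (edgeR, log2 fold change -5.7, standard error 0.28, adjusted p = 1.5e-26), and Cnga4, a subunit of a cyclic nucleotide-gated channel, had 194, 197 and 140 and 2.7, 2.28 and 3.75. For 4 others the T24 libraries held at most 3 reads each. Gsdma3, a pore-forming gasdermin, went from a mean of 149 to 0.253, Dppa1 from 126 to 0.566, Cd180 from 138 to 0.938 and Mobp from 118 to 1.07. The ratios of their group sums ran from 125 for Mobp to 472 for Gsdma3, with lower ends of the 95% counting intervals from 42.3 to 84.3.

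Most genes of the naive network were lower at T24, by amounts that differed greatly. Of 14 genes, 12 fell, 1 rose and 1 did not pass, with a median log2 fold change of -1.58, against -0.01 over all genes. Tfcp2l1, a LIF- and GSK3-inhibitor-responsive factor, had counts of 26010.2, 26899 and 27431 in the ESC libraries and 5495, 5881 and 5187 at T24 (edgeR, log2 fold change -2.28, standard error 0.053, adjusted p = 1.2e-14). Prdm14, a repressor of FGF signalling and DNA methyltransferases, went from 1260.2, 1369 and 1362 to 344, 323 and 331 (edgeR, log2 fold change -2.01, standard error 0.06, adjusted p = 4.1e-40). Tdh, a threonine dehydrogenase enriched in mouse ESCs, fell by the like amount, from 6388 to 1583.

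Klf4 counts were 6026, 5646 and 5543 before exit and 1491, 1478 and 1630.1 after it (edgeR, log2 fold change -1.91, standard error 0.036, adjusted p = 4.7e-51). Nanog stood at 21136, 21067 and 20710 and then at 8095, 8345 and 8323 (edgeR, log2 fold change -1.35, standard error 0.027, adjusted p = 4.6e-50). The 3 T24 libraries of Nanog lay close together and far below the ESC libraries. Esrrb, the receptor that holds the network together in the absence of other inputs, had 19336, 18926 and 19391 against 12034, 12316 and 11656 (edgeR, log2 fold change -0.68, standard error 0.027, adjusted p = 1.8e-33), the smallest of the falls. Klf2 fell from 7446 ± 581 to 2539 ± 248 (SD, n = 3 each), Klf5 from 5800.3 to 2428, Tbx3 from 7504 to 2429.8, Nr5a2 from 3777 to 1252, Dppa3 (Stella) from 648 to 204 and Tcl1 from 2108 to 1050.3. Zfp42 (Rex1), the gene whose loss usually marks exit, did not pass the test. Its counts were 17772, 17381 and 17548 before exit and 17924, 17301 and 17888 at T24, so the groups overlapped (log2 fold change 0.01, standard error 0.03, edgeR, adjusted p = 0.85). Nr0b1 (Dax1), an orphan receptor that restrains OCT4, went the other way, from 1256, 1197 and 1361 to 6319.6, 6359 and 6487 (edgeR, log2 fold change 2.33, standard error 0.041, adjusted p = 1.5e-37).

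Genes shared by naive and later pluripotency either rose or did not pass the test. Pou5f1 (OCT4) had counts of 13229, 13085 and 12785 in the ESC libraries and 13292, 13127 and 13421 at T24, and Sox2 had 9555, 9072 and 9164 and 9882, 9068 and 9546. Neither passed the test, with log2 fold changes of 0.02 and 0.03 and standard errors of 0.027 and 0.03. These defining transcripts of pluripotent cells were thus abundant in every library of both groups. The other 4 of 6 such genes rose. Lin28a, which blocks let-7 processing, went from 239, 258 and 279 to 2647, 2477 and 2697 (edgeR, log2 fold change 3.33, standard error 0.045, adjusted p = 1.1e-57), Utf1 from 1696 to 10654, Dppa4 from 936 to 2469.6 and Sall4 from 6433 to 7530.4.

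**Figure D2:**
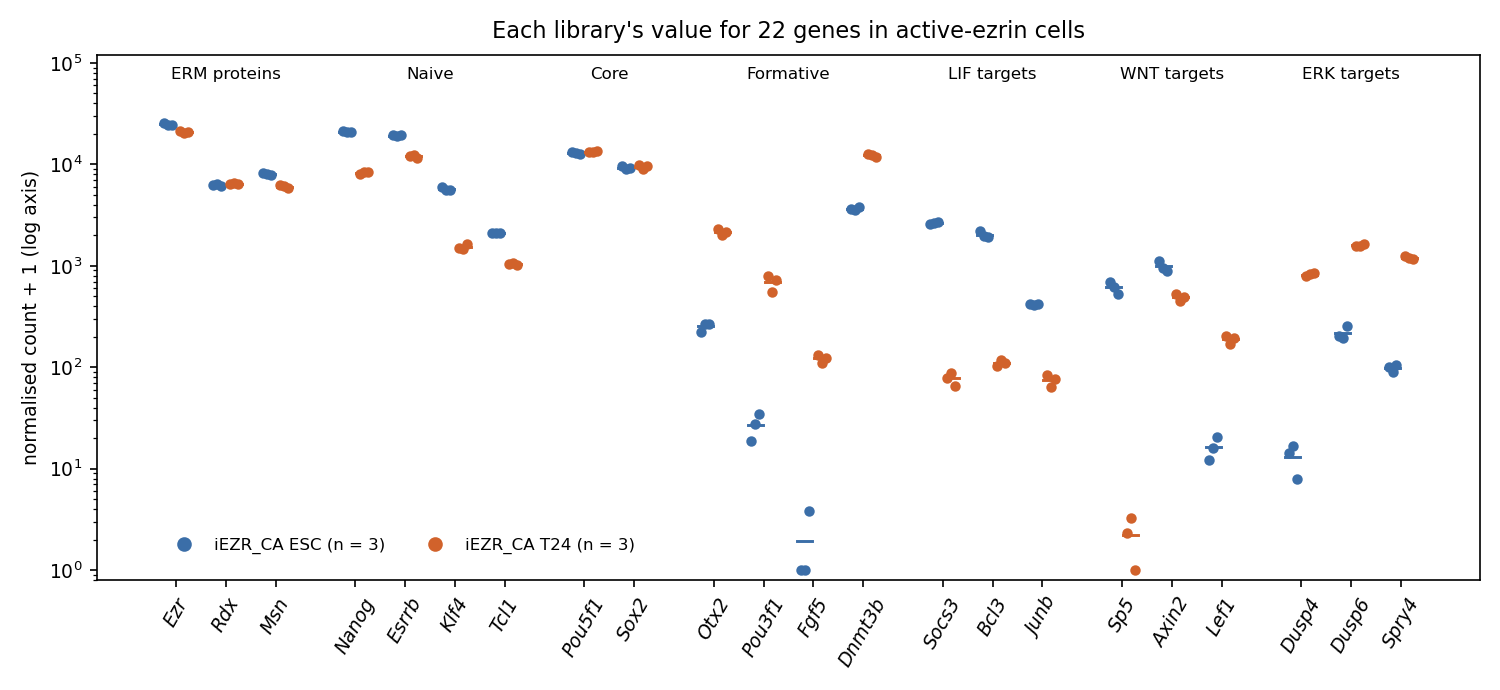
Normalised read count plus 1 (log axis) of ERM genes and of pluripotency, LIF, WNT and ERK target genes in the 6 iEZR_CA libraries, with 1 point per library, a bar at each mean, and ESC in blue and T24 in orange. The naive and LIF target genes shown lie lower at T24 in all 3 libraries, the formative and ERK target genes shown lie higher, and Rdx, Pou5f1 and Sox2 lie at nearly the same height at both times.

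All 13 formative genes rose at T24, with a median log2 fold change of 2.17. Without the library of well G9, or under ERCC scaling, the count was 12. The gene near the threshold is Foxd3, a forkhead factor of the epiblast, whose counts of 1755, 1635 and 1695 and 1880.4, 1767 and 1872 differ by a log2 fold change of 0.11 (edgeR, adjusted p = 0.012). Otx2, the factor that directs OCT4 to formative enhancers, was at 224, 268 and 267 in the ESC libraries and at 2292, 1997 and 2153 at T24 (edgeR, log2 fold change 3.07, standard error 0.06, adjusted p = 5.5e-36). Pou3f1 (OCT6), a POU factor of the post-implantation epiblast, went from 17.7, 26.8 and 33.6 to 790.5, 550 and 723 (edgeR, log2 fold change 4.71, standard error 0.28, adjusted p = 4.7e-09). Its T24 libraries were spread widely (SD of 124 around a mean of 688), and the groups were far apart.

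Fgf5, the classical marker of the primed epiblast, had 2 reads in all across the 3 ESC libraries, and 132, 110.2 and 123 normalised counts at T24, a ratio of 168 with a 95% counting interval of 46.3 to 1395. Sox3 rose from 38.6 to 473, Tcf15 from 52.9 to 459, and the zinc finger gene Zic2 from 888 to 3624. Lef1, a WNT effector that belongs to the formative program, had 11.1, 15.1 and 19.6 in the ESC libraries and 202, 168 and 193 at T24 (edgeR, log2 fold change 3.62, standard error 0.16, adjusted p = 4.3e-31). Sall2 and Etv1 rose by log2 fold changes of 1.58 and 0.97.

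Socs3 and Bcl3, targets of LIF signalling, had the largest falls in the LIF and STAT3 list. Of 11 genes of the LIF and STAT3 pathway that passed the filter, 7 fell and 3 rose (median -0.91). Osmr was filtered out, with at most 4 reads in a library. Socs3, the feedback inhibitor of the LIF receptor complex, dropped from 2559, 2627 and 2724 to 78.2, 86.6 and 64.7 (edgeR, log2 fold change -5.1, standard error 0.077, adjusted p = 2.1e-44), and Bcl3 from 2188, 1956 and 1924 to 103, 118 and 109 (edgeR, log2 fold change -4.19, standard error 0.081, adjusted p = 1.9e-32). Junb fell from 416 to 73.5. Of the signalling chain itself, Stat3 fell from 3235 to 1201 and the co-receptor Il6st (gp130) from 3258 to 1734, while the receptor Lifr rose from 2089 to 2465. The kinase gene Jak1 rose from 1834 to 1998, a call lost under ERCC scaling. The kinases Pim1 and Pim3, both STAT3 targets, had log2 fold changes of -1.0 and -0.57 and fell. Gadd45g, which is also an early gene of differentiation, rose from 22.1 to 393, and Gbx2, a STAT3 target that can hold naive identity, did not pass (290.1, 235 and 256 against 227, 226 and 222). The 9-letter palindrome TTCCNGGAA bound by STAT factors was found in no RefSeq window from 250 bases before to 50 after the start of any of the 12 genes, and in 1.15% of all 32851 such windows.

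Targets of the WNT pathway moved in both directions, with Sp5 and Cdx1 nearly lost. Of 16 genes tested, 8 fell and 4 rose (median -0.43), and Lgr5 was filtered out with at most 1 read in a library. The window around the start of Sp5, an SP/KLF-family factor, holds the core of a TCF/LEF element, CTTTGAT, and is shown because Sp5 fell furthest in the list. RefSeq windows from 250 bases before to 50 after the start were available for 12 of the 17 listed genes and held it on either strand in 2, Sp5 and Tnfrsf19, against 3.73% of all 32851 windows. The match of Sp5 begins 104 bases before the start, in GRCm38.p6 chr2:70474794-70474850 (plus strand), with the core in capitals.
Sp5: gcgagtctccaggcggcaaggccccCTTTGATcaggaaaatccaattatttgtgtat
Sp5 counts were 697, 617 and 525 in the ESC libraries and 1.35, 2.28 and 0 at T24. The 3 T24 libraries held 4 reads together against 1741 before exit, a ratio of 484 with a 95% counting interval of 188 to 1777. Tnfrsf19 fell from 527, 568 and 469 to 264, 268 and 244 (edgeR, log2 fold change -1.03, standard error 0.10, adjusted p = 1.3e-08).

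Cdx1, a caudal homeobox gene, went from 556, 508 and 449 to 2.7, 6.84 and 6.57 (edgeR, log2 fold change -6.43, standard error 0.22, adjusted p = 4.7e-20). The WNT feedback inhibitors Dkk1 and Rnf43 dropped from 37.3 to 3.16 and from 20.4 to 2.15. Axin2, the scaffold most used as a reporter of β-catenin, fell less, at 1113, 952 and 889 against 522, 451 and 489 (edgeR, log2 fold change -1.04, standard error 0.11, adjusted p = 1.5e-06). Cdx2, at 24.4, 16.7 and 16.8 and 1.35, 1.52 and 0, also fell (ratio of group sums 20, counting interval 6.49 to 99.99), and so did Tcf7, with a log2 fold change of -0.15. Lef1, Nkd2, Notum and Ccnd1 rose, the WNT-inactivating enzyme Notum from 478, 479.6 and 438 to 796, 731 and 837 (edgeR, log2 fold change 0.74, standard error 0.062, adjusted p = 5e-17). Nkd1, Znrf3, Bmp4 and Brachyury (T) did not pass. Of 14 genes of the core machinery 5 rose and 5 fell. Without the library of well G9 both numbers were 6, and under ERCC scaling 3 fell. The Frizzled receptor genes were divided. Fzd7 rose from 487, 427 and 477 to 3588, 3359 and 3500.4 (edgeR, log2 fold change 2.91, standard error 0.045, adjusted p = 7.4e-50), Fzd1 and Fzd2 rose by 1.99 and 1.02, and Fzd5 fell from 3578, 3680.4 and 3836 to 1387, 1359.9 and 1319 (edgeR, log2 fold change -1.45, standard error 0.038, adjusted p = 1.4e-43) with Fzd10 from 1262 to 450.1. Gsk3b, the kinase that the inhibitor blocks, fell from 4952 to 2669.6, and Ctnnb1 (β-catenin) rose from 16046 to 18083.

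Most listed targets of ERK were higher at T24, after the MEK/ERK inhibitor was withdrawn. Of 19 genes, 15 rose and 3 fell, with a median log2 fold change of 1.04. Dusp4, a nuclear phosphatase that inactivates ERK, went from 13.3, 15.9 and 7.0 to 786, 824 and 849 (edgeR, log2 fold change 5.99, standard error 0.11, adjusted p = 1e-52). Dusp6, its cytoplasmic counterpart, went from 202, 193 and 255 to 1576, 1557 and 1631 (edgeR, log2 fold change 2.9, standard error 0.067, adjusted p = 1e-32). The feedback inhibitor Spry4 had 98.6, 87.9 and 105 and 1246, 1191 and 1179 (edgeR, log2 fold change 3.64, standard error 0.073, adjusted p = 4.7e-50). In all 3 genes every T24 library lay far above every ESC library. Myc rose from 57.6, 77.8 and 79.8 to 719, 681 and 685 (edgeR, log2 fold change 3.26, standard error 0.10, adjusted p = 2.6e-29), Egr1 from 5.11 to 24.2 and Spry1 from 117 to 369. The ETS factors moved unequally, with Etv4 from 1998 to 3967 and Etv5 from 8329 to 9396. Epha4 fell from 3838 to 1344 while its relative Epha2 rose from 2064 to 4249.7. Fos fell from 26.2 to 11.3, on at most 27 reads in a library. Spry2 had 1229, 1171 and 1268 and 1164, 1143 and 1096, a log2 fold change of -0.11 (edgeR, adjusted p = 0.032) that turned to 0.04 under ERCC scaling. The call of Spry2 was also lost with upper-quartile scaling, with no filter, with DESeq2 and with the libraries of the contrast alone. It was lost as well when certain single libraries were left out. Ier3 did not pass.

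The FGF ligands, receptors and adaptors upstream of ERK moved in both directions. Of 17, 6 rose and 3 fell, 1 of them under ERCC scaling, near the background of 56.0% called. The largest rise was that of Fgf5 (0, 0 and 2.8 against 132, 110.2 and 123), which is also in the formative list. Fgf4, the main autocrine ligand of ESCs, was at 6097, 6159.8 and 5778 before exit and 5771, 5553 and 5472 at T24, and did not pass (log2 fold change -0.11, edgeR, adjusted p = 0.057), though it did with DESeq2. Fgfr1, the main receptor, had 4438, 4259.7 and 4396 and 4538, 4517 and 4507 and did not pass. Fgfr2, the receptor of the primitive endoderm lineage, rose from 146, 156 and 181 to 406, 476 and 409 (edgeR, log2 fold change 1.44, standard error 0.10, adjusted p = 4.7e-15). Fgf3 fell from 115 to 45.5 and Fgf15 rose on few reads, from 2.7 to 17.8 (ratio of group sums 7.07, counting interval 3.21 to 18.4). Map2k1 (MEK1) and the adaptor gene Grb2 had log2 fold changes of -0.19 and -0.15, calls that were lost under ERCC scaling, and Mapk3 (ERK1) and the phosphatase gene Ptpn11 rose by 0.18 and 0.17.

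In the Nodal and Activin pathway, which sustains post-implantation pluripotency, 7 of 14 genes rose and 4 fell, 2 under ERCC scaling. The rises were led by the Nodal antagonists. Lefty1 had counts of 11.1, 14.2 and 11.2 in the ESC libraries and 719, 477 and 608 at T24 (edgeR, log2 fold change 5.54, standard error 0.21, adjusted p = 1.8e-14). Lefty2 went from 46.5, 56.1 and 70 to 310.2, 218 and 223 (edgeR, log2 fold change 2.1, standard error 0.20, adjusted p = 9.8e-08). The groups did not overlap in either gene, although the T24 libraries were widely spread. Nodal itself fell from 1724, 1775 and 1775 to 1464, 1484 and 1522 (edgeR, log2 fold change -0.24, standard error 0.039, adjusted p = 2.8e-07), and its co-receptor Tdgf1 (Cripto) from 6414 to 2813. The transcriptional partner Foxh1 rose from 1135 to 1638 and the corepressor Skil from 912 to 2746. The signal transducer Smad4 rose by 0.28 on the log2 scale, whereas Smad2 and Smad3 did not pass.

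Of 11 genes of bone morphogenetic protein (BMP) signalling, 3 rose and 2 fell, beside 27.1% and 28.9% of all genes tested. The inhibitor of differentiation gene Id3 rose from 497, 433 and 550.2 to 1171, 1156 and 1141 (edgeR, log2 fold change 1.24, standard error 0.064, adjusted p = 4.6e-24), and Id1 rose from 45.4, 56.9 and 35 to 82.3, 84.3 and 81.6 (edgeR, log2 fold change 0.80, standard error 0.16, adjusted p = 2.6e-05). Id2 did not pass, and Id4 fell from 105 to 60.3. The ligand gene Bmp7 fell from 239.8 to 129, while Bmp4, at 662, 578 and 638 and 614, 659 and 695, did not pass.

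The 3 genes of de novo DNA methylation, Dnmt3a, Dnmt3b and Dnmt3l, rose. Of 8 genes of the DNA methylation list, 5 rose and 1 fell, and without the library of well G9 6 rose. Dnmt3l, the catalytically inactive partner of the de novo enzymes, went from 1779, 1846 and 1886 to 15116, 14803 and 15278 (edgeR, log2 fold change 3.03, standard error 0.044, adjusted p = 5.7e-24). Dnmt3b went from 3636, 3549.9 and 3779 to 12600.2, 12273 and 11862 (edgeR, log2 fold change 1.74, standard error 0.031, adjusted p = 1.3e-33) and Dnmt3a from 1828, 1859.9 and 1952 to 5843, 5847 and 5523 (edgeR, log2 fold change 1.61, standard error 0.033, adjusted p = 4.5e-43). The maintenance enzyme Dnmt1 did not pass, and its partner Uhrf1 rose by 0.14 on the log2 scale. The dioxygenases that remove the mark were unequal. Tet2 fell from 5842, 6136 and 6241 to 2266, 2432 and 2235 (edgeR, log2 fold change -1.39, standard error 0.056, adjusted p = 8e-13), Tet3 rose from 388 to 525, and Tet1 did not pass.

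Genes of the germ line, several of which are silenced by promoter methylation in somatic cells, were called about as often as all genes. Of 13, 3 rose and 4 fell, beside 27.1% and 28.9% of all genes, and 2 rose both without the library of well G9 and under ERCC scaling. Dazl, an RNA-binding protein of germ cells, fell from 2490.4, 2532 and 2534 to 1287, 1426 and 1423 (edgeR, log2 fold change -0.87, standard error 0.039, adjusted p = 4.1e-30), and Asz1 and Stra8 fell from 56.4 to 26.2 and from 219.8 to 117. Mael rose from 59.3 to 96, and Tex19.1, the member with the most reads, did not pass at 2886, 3062 and 3070.2 and 2945, 2934 and 3039.8.

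Among integrin and laminin genes, Lama1 and Lamb2 had the largest falls and Itga9 the largest rise. Of 19 tested, 11 fell and 5 rose, and under ERCC scaling 5 fell. Itga2 was filtered out. Lama1, the α-chain of the first laminin of the embryo, fell from 3487, 3573 and 3759 to 384, 416 and 392.1 (edgeR, log2 fold change -3.18, standard error 0.05, adjusted p = 2e-56), and Lamb2 from 3431, 3276 and 3345 to 955, 1021 and 959 (edgeR, log2 fold change -1.77, standard error 0.041, adjusted p = 1.1e-46). The β-chain gene Lamb1 rose from 498 to 651. Itga9 went from 18.8, 20.1 and 23.8 to 219, 210.4 and 218 (edgeR, log2 fold change 3.37, standard error 0.16, adjusted p = 9.3e-29), Itga3 from 1985 to 5072 and the laminin receptor Itga6 from 3423 to 6219. Itgb1, the common β-chain, did not pass, and Itgb3, Itgb4 and Itga7 fell.

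In a list of 12 cadherin, epithelial and mesenchymal genes 6 rose and 2 fell, beside 27.1% and 28.9% of all genes tested. Cdh1 (E-cadherin) fell from 24072, 23430.4 and 23699 to 18732, 18990.2 and 17981 (edgeR, log2 fold change -0.36, standard error 0.026, adjusted p = 1.2e-19), a call lost under ERCC scaling, and the matrix gene Fn1 fell from 33198 to 21698. Cdh3 (P-cadherin) rose from 4169, 3903 and 4050.2 to 9817, 10253 and 9509.7 (edgeR, log2 fold change 1.29, standard error 0.031, adjusted p = 1.4e-45), Epcam from 679 to 1420 and Cldn6, a tight junction claudin, from 53.3 to 188. Vim did not pass, at 4376, 4395 and 4501 and 4577, 4411 and 4569. Of 12 tested targets of SRF and YAP, which respond to actin tension, 8 rose and 2 fell, and neither fall was called under ERCC scaling. Ccn2 (CTGF) rose from 419, 403 and 384 to 689, 720.2 and 768 (edgeR, log2 fold change 0.85, standard error 0.066, adjusted p = 3.9e-18), the actin-binding Cnn2 from 462 to 885, Vcl (vinculin) from 2316 to 3181 and the myosin light chain gene Myl9 from 8.46 to 56. Ankrd1, Actg2 and Tagln were filtered out, with at most 3 reads in a library.

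Changes in endocytosis genes were small and depended on the scaling. Of 18 tested, 10 fell and 2 rose with a median of -0.14, and under ERCC scaling no fall was called and the median was 0.01. Rab5b, Rab5c and Rab5a, the GTPases of early endosomes, had log2 fold changes of -0.39, -0.38 and -0.32, and Clta, a clathrin light chain, of -0.31. Eea1, an early endosome tether, rose from 610.1 to 771. Dnm2, the ubiquitous dynamin, did not pass. Cav1 had no read in any of the 6 libraries and Cav2 at most 1, so caveolin transcripts were not detected beyond single reads.

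Of 18 listed amino acid and stress genes known as targets of ATF4, 11 fell and 1 rose (median -0.38), and 8 fell under ERCC scaling. The C/EBP-ATF response element TGATGNAA was found on either strand in 5 of the 16 members with a RefSeq window (Asns, Nupr1, Trib3, Slc7a11 and Chac1), against 3.97% of all 32851 windows. All of these but Chac1 fell. The stretches below are those of the 3 with the largest falls, written along the gene, in GRCm38.p6 chr6:7693200-7693257 (minus strand), chr7:126625548-126625605 (minus strand) and chr2:152344014-152344071 (minus strand), with the match in capitals. In Nupr1 and Trib3 it reads on the opposite strand.
Asns: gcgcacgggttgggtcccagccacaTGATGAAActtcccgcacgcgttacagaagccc
Nupr1: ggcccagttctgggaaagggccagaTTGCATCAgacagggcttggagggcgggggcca
Trib3: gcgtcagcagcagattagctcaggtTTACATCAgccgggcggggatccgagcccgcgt
Asns, asparagine synthetase, fell from 20928, 20879 and 20254 to 7482, 7814 and 7734 (edgeR, log2 fold change -1.43, standard error 0.028, adjusted p = 1.2e-47). The stress protein gene Nupr1 fell from 557, 596 and 552 to 136, 164 and 107 (edgeR, log2 fold change -2.05, standard error 0.10, adjusted p = 4.6e-22), and Trib3, a pseudokinase that feeds back on ATF4, from 912, 933 and 806 to 426, 475 and 453 (edgeR, log2 fold change -0.97, standard error 0.06, adjusted p = 9.8e-22). The serine synthesis genes Psat1 and Psph fell, with log2 fold changes of -0.76 and -0.58, while Phgdh, the first enzyme of that route, did not pass. Atf4 itself fell from 4997 to 4106. Slc7a3, a cationic amino acid transporter, was the exception and rose from 2115, 2222 and 2254 to 8100.2, 8038 and 8126 (edgeR, log2 fold change 1.88, standard error 0.032, adjusted p = 8.6e-52).

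Most cholesterol synthesis genes were higher at T24. Of 20, 17 rose, each by less than 2-fold, and 1 fell, with a median log2 fold change of 0.33. The sterol regulatory element TCACNCCAC was present in 1 of the 13 members with a window, Hmgcs1, and in 1.24% of all windows. Its match begins 137 bases before the start, in GRCm38.p6 chr13:119690189-119690247 (plus strand), in capitals here.
Hmgcs1: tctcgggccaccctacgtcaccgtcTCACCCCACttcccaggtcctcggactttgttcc
Hmgcs1, which makes the precursor of mevalonate, rose from 6787, 6640.2 and 6761 to 9776, 10035 and 9496 (edgeR, log2 fold change 0.54, standard error 0.026, adjusted p = 2.1e-28). Lss, lanosterol synthase, rose from 2309.9, 2218 and 2318 to 4236, 4394 and 4119 (edgeR, log2 fold change 0.90, standard error 0.031, adjusted p = 3.7e-36) and Nsdhl from 1447 to 2309. Sc5d and Insig1 did not pass.

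**Figure D3:**
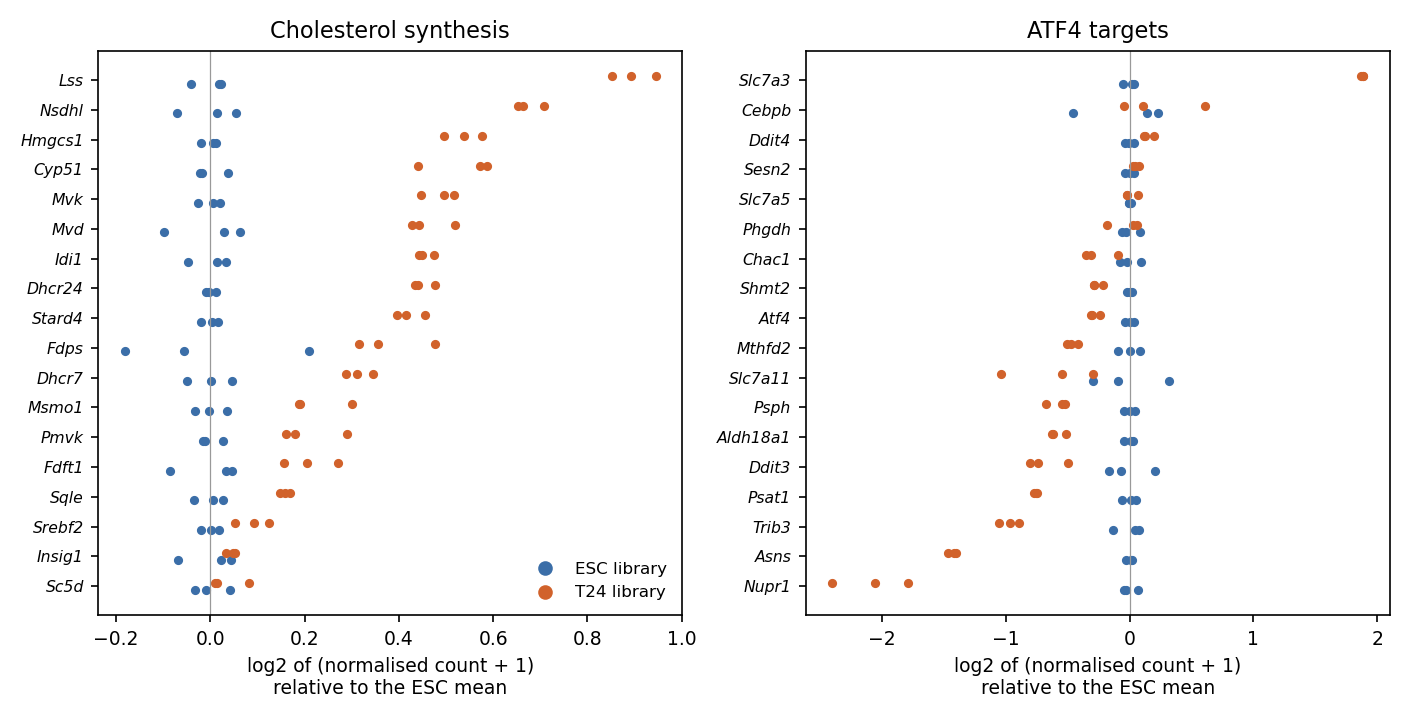
Normalised read count plus 1 of tested members of the cholesterol synthesis list (left) and the ATF4 target list (right) in each iEZR_CA library, as the log2 ratio to the ESC mean, with ESC libraries in blue and T24 libraries in orange. The horizontal scales of the panels differ, and the T24 points lie to the right for most cholesterol genes, furthest for Lss, and to the left for most ATF4 targets, with Slc7a3 on the other side.

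Among 18 glycolytic genes 8 rose and 7 fell, 2 of them under ERCC scaling, beside 27.1% up and 28.9% down over all genes tested. Pdk1, which keeps pyruvate out of the mitochondrion, rose from 616, 633 and 685 to 3910.5, 3844 and 3742 (edgeR, log2 fold change 2.57, standard error 0.039, adjusted p = 3e-57). The hexokinase gene Hk2 fell from 9055, 8773 and 9072 to 4250.4, 4374 and 4141 (edgeR, log2 fold change -1.08, standard error 0.028, adjusted p = 1.8e-43), with Hk1 from 4302 to 2406. The phosphofructokinase genes Pfkm, Pfkl and Pfkp rose by 1.23, 0.78 and 0.22. Gapdh, which has many processed copies and so loses reads in the counting, did not pass. Of 13 mitochondrially encoded mRNAs, 5 fell and none rose, and under ERCC scaling none passed. The cytochrome oxidase genes mt-Co1 and mt-Co2 had log2 fold changes of -0.28 and -0.26. Of 76 cytosolic ribosomal protein genes, whose reads are shared with pseudogenes, 52 fell and 1 rose with a median of -0.15, and under ERCC scaling 1 fell and the median was 0.01.

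Of 11 MYC network genes 4 rose and 4 fell, and none of the falls held under ERCC scaling. Beside this list and the G1 and p53 lists, 27.1% of all genes tested rose and 28.9% fell. The MAX partner Mxd4 rose from 86 to 309 beside the rise of Myc given above, and Mycn, the paralog with more reads in the ESC group, did not pass at 2654, 2735 and 2790.2 and 2788, 2591 and 2520.2. Of 14 G1 genes 6 rose and 4 fell, 1 under ERCC scaling. Cdkn1a (p21), an inhibitor of G1 kinases and a p53 target, fell from 5581, 5379 and 5152 to 2209.5, 2142 and 2231 (edgeR, log2 fold change -1.3, standard error 0.031, adjusted p = 1.5e-45). Ccnd1 rose from 3026, 2878 and 2852 to 4501, 4464 and 4445 (edgeR, log2 fold change 0.61, standard error 0.029, adjusted p = 9.2e-29), Cdk6 from 967 to 1643 and, at lower counts, Ccnd2 from 10.2 to 50.3. Among 12 p53 targets 6 rose and 2 fell. Zmat3 and Eda2r rose by 0.58 and 0.56, and Mdm2, the ubiquitin ligase of p53, did not pass.

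A list of 12 lysosomal and TFE3 genes covers the folliculin axis, through which TFE3 leaves the nucleus during exit. In it 4 rose and 6 fell, 3 under ERCC scaling, beside 27.1% up and 28.9% down over all genes tested. Rragd, a GTPase and TFE3 target, fell from 3074, 3099 and 2929 to 1164, 1162 and 1134 (edgeR, log2 fold change -1.4, standard error 0.038, adjusted p = 2.3e-42), Gpnmb from 41 to 2.28 and Lamp1 from 12911 to 8474. Tfe3 itself rose from 2241 to 2912, Rragc from 948 to 1302, and Flcn did not pass.

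**Figure D4:**
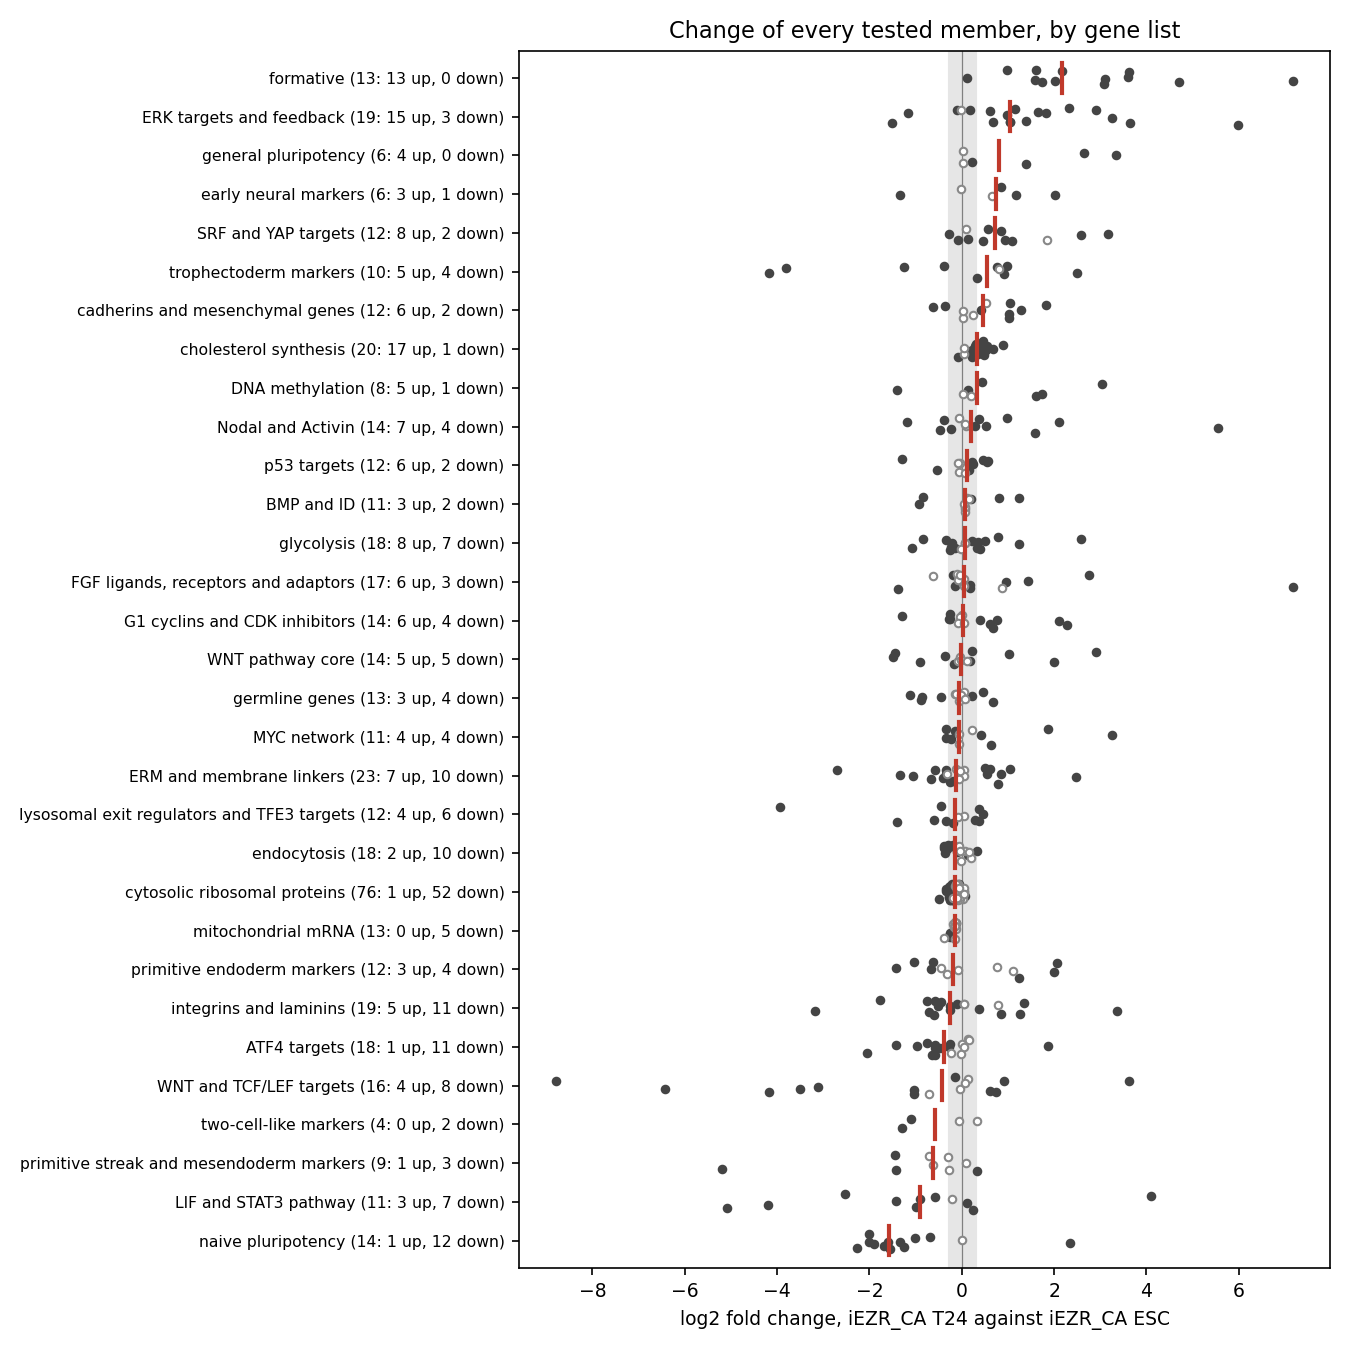
Log2 fold change (T24 over ESC) of every tested member of each gene list in iEZR_CA cells, filled where the member passed the test and open where it did not, with a red bar at the list's median, the counts of members beside the name, and a grey band between the quartiles of all genes (-0.27 and 0.31). The formative genes have the highest median, 2.17, and the naive genes the lowest, -1.58.

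Markers of other cell types were low or mixed. Of 12 primitive endoderm markers 3 rose and 4 fell, and their summed level ran from 11124 to 11263 in the ESC libraries and from 7690.1 to 7820.4 at T24, most of it Sparc. Gata4 (18.8, 15.1 and 18.2 and 14.8, 19.8 and 13.1) and Sox17 (9.97, 15.1 and 32.2 and 8.09, 14.4 and 15) did not pass, and Gata6 fell from 61.5 to 40.3. Of 10 trophectoderm markers tested 5 rose and 4 fell, and without the library of well G9 4 rose. Their sum ran from 3409 to 3581 and from 2291 to 2331, with Elf5 filtered out at no more than 9 reads in a library. Tfap2c, also a factor of naive cells, fell from 1814, 1702 and 1757 to 132, 126 and 122 (edgeR, log2 fold change -3.8, standard error 0.064, adjusted p = 2.5e-54), and Ascl2, a WNT-responsive factor, rose from 93.7 to 526.

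Of 9 primitive streak markers tested 1 rose and 3 fell, and without the library of well G9 none rose and 2 fell. Their sum ran from 699.8 to 767 in the ESC libraries and from 194 to 221 at T24. Gsc accounted for that drop, at 526, 570 and 573 and 13.5, 12.9 and 18.8 (edgeR, log2 fold change -5.2, standard error 0.14, adjusted p = 3.4e-42), and Mesp1 and Lhx1 were filtered out. Of 6 early neural markers tested 3 rose and 1 fell, with a sum from 1147 to 1205 and from 833 to 881. Sox1, the first neural SOX gene, rose from 72, 85.4 and 72.8 to 163, 172 and 191 (edgeR, log2 fold change 1.18, standard error 0.13, adjusted p = 6.5e-11), and Pax6 from 57.2 to 227, while Nes fell from 1027 to 412. Hes5 had at most 1 read in an ESC library and none at T24. Olig2 had none in the ESC libraries and at most 2 in a T24 library. Both were filtered out, as were Pax3 and Neurog2. Of 4 tested markers of 2-cell-like cells none rose and 2 fell, with a sum from 92.1 to 126 and from 58.0 to 72.2. Zscan4d fell from 35.8 to 14.7, and its reads cannot be assigned with certainty among near-identical copies. Tcstv1 had no read in any library. The part of such cells in the results was not tested.

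The 24 h change was then compared with that of WT cells over the same time, as the interaction of line and time, to ask how the active ezrin line differed. Of 18469 genes, 7081 (38.3%) had an interaction with an adjusted p under 0.05 (edgeR), 3966 of them positive, that is, with the higher log2 fold change in iEZR_CA cells. Under ERCC scaling the count was 2416. Of the 1224 genes that fell more than 2-fold in iEZR_CA cells, 360 fell by less than in WT and 180 by more. Of the 1526 that rose more than 2-fold, 196 rose by less and 431 by more. These genes were chosen by the size of their change in iEZR_CA cells, which favours the larger change there. Of the 1928 genes that fell more than 2-fold in WT cells, 1113 had a called positive interaction and 55 a negative one. Of the 1912 that rose more than 2-fold in WT cells, 665 had a called negative interaction and 123 a positive one. Choosing by WT cells favours the larger change in WT. All these counts go by the sign of a called interaction. Some of the genes changed the other way in the other line, Lmx1b and Bfsp1 among them. For the rises the balance thus depended on the line used to choose the genes. The WT cells were not at the same starting level for every gene, and the interaction compares changes and not levels.

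For the naive genes the interaction was positive in all 13 that passed it. Klf4 had a log2 fold change of -1.91 in iEZR_CA cells and -4.05 in WT (edgeR interaction 2.15, standard error 0.056, adjusted p = 1.8e-41). For Nanog the values were -1.35 and -3.32 (edgeR interaction 1.98, standard error 0.039, adjusted p = 5.7e-49), and for Tbx3 -1.63 and -4.32 (edgeR interaction 2.69, standard error 0.058, adjusted p = 1.1e-42). Zfp42, which did not pass in iEZR_CA cells, had -0.57 in WT (edgeR interaction 0.57, adjusted p = 1.5e-14). Of the formative genes, 7 had a negative interaction, 1 a positive one and 5 did not pass it. The rise of Otx2 was 3.07 against 4.26 (edgeR interaction -1.19, standard error 0.094, adjusted p = 4.8e-14), and that of Dnmt3a 1.61 against 4.11 (edgeR interaction -2.5, standard error 0.047, adjusted p = 1.6e-43).

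In the signalling lists some interactions were called and others not. Over all genes tested 38.3% had a called interaction, 3966 positive and 3115 negative. The interaction counts of every list are to be read beside these. Of 11 LIF and STAT3 genes 9 had a called interaction, 3 positive and 6 negative, of 19 ERK targets 10 did, 3 positive and 7 negative, and of 16 WNT targets 7 did, 3 positive and 4 negative. Socs3 had log2 fold changes of -5.1 in iEZR_CA cells and -5.3 in WT, and its interaction did not pass (edgeR interaction 0.20, standard error 0.16, adjusted p = 0.36). Dusp6 rose by 2.9 and 3.0 on the log2 scale (edgeR interaction -0.10, standard error 0.10, adjusted p = 0.46) and Axin2 changed by -1.04 and -1.36 (edgeR interaction 0.32, standard error 0.16, adjusted p = 0.13), neither passing. Spry4 rose by less, 3.64 against 5.0 (edgeR interaction -1.35, standard error 0.14, adjusted p = 5.7e-13). Among the BMP genes 7 interactions were positive, Id1 with 0.80 against -1.16 (edgeR interaction 1.96, adjusted p = 1.5e-11). Of the germline genes 10 had a negative interaction and 1 a positive one, and Mael rose by 0.67 against 2.12. In the cholesterol list 14 were negative, with Sqle at 0.16 against 0.92 (edgeR interaction -0.76, adjusted p = 4.9e-27). For the DNA methylation genes 6 were negative, and for the p53 targets 8 were positive.

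**Figure D5:**
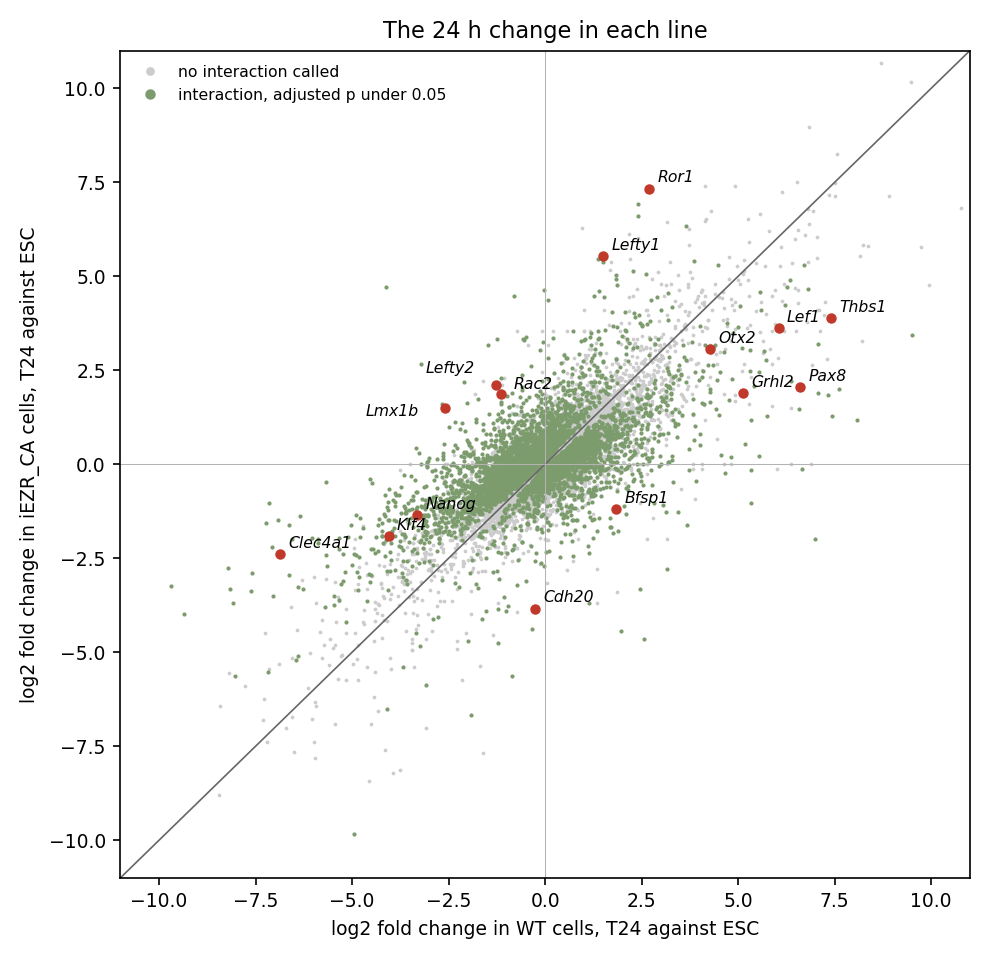
Log2 fold change (T24 over ESC) of each tested gene in iEZR_CA cells (vertical axis) against that in WT cells (horizontal axis), with genes that had a called interaction in green, the others in grey, labelled genes of the text in red and a diagonal line of equal change. Klf4 lies above the line at -1.91 against -4.05 and Lefty1 at 5.54 against 1.5, and Otx2 lies below it at 3.07 against 4.26.

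The genes with the largest interactions among those that changed more than 2-fold in iEZR_CA cells were mixed in kind. Lefty1 rose by 5.54 against 1.5 in WT, and Lefty2 by 2.1 where it had -1.26 in WT (edgeR interaction 3.36, standard error 0.23, adjusted p = 2.7e-09). The lines differed in their starting levels. Mean counts of Lefty1 were 12.2 in iEZR_CA ESCs and 255 in WT ESCs, and 601 and 718 at T24. Those of Lefty2 were 57.5 and 740 before exit, and 251 and 304 at T24. Ror1 rose by 7.33 against 2.69, from means of 1.30 in iEZR_CA ESCs and 28.0 in WT ESCs to 250 and 182 at T24. The lectin receptor gene Clec4a1 fell from 182 to 33.1, where the WT T24 libraries held 2 reads of it in all. Lmx1b, a LIM homeobox gene, rose from 48.7, 46 and 44.8 to 135, 132 and 132, a log2 fold change of 1.51 where WT cells had -2.59. The GTPase gene Rac2 rose by 1.88 where WT cells had -1.15. In WT cells the mean of Lmx1b went from 158 to 25.8 and that of Rac2 from 100 to 46.0.

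Smaller in iEZR_CA cells were the rises of Grhl2, a grainyhead factor that opens epithelial enhancers (1.9 against 5.12, edgeR interaction -3.22, standard error 0.11, adjusted p = 8.2e-36), the matrix gene Thbs1 (3.88 against 7.4) and the paired-box gene Pax8 (2.05 against 6.6). Grhl2, Thbs1 and Pax8 started higher in iEZR_CA than in WT ESCs and stood lower than in WT at T24. Mean counts of Grhl2 were 170 in iEZR_CA ESCs and 97.6 in WT ESCs, and 650 and 3466 at T24. Those of Thbs1 were 27.0 and 5.97 before exit, and 422 and 1086 at T24. Those of Pax8 were 22.1 and 4.19 before exit, and 97.5 and 417 at T24. Cdh20, a type II cadherin, fell from 243, 252 and 265 to 10.8, 22.8 and 15.9, a log2 fold change of -3.84 against -0.26 in WT, which did not pass there. In all, 22 genes rose more than 2-fold in iEZR_CA cells and fell more than 2-fold in WT, and 10 did the reverse, Bfsp1, a lens filament gene, among them.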

How the data were processed

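The authors trimmed reads with Trim Galore (0.6.5), aligned them with GSNAP (2015-09-29) and counted them per gene with HTSeq, and the deposited table holds raw counts of 53801 genes and 92 ERCC transcripts in 18 libraries, with no normalisation. The tools and versions are from the submitters' processing notes. HTSeq leaves out reads that map to several places, so multi-copy genes (the Zscan4 and Usp17l families, ribosomal proteins, Gapdh) are uncertain. Strandedness is not given in the sources used here, so overlapping and antisense genes may share reads. The 5 rows for reads assigned to no gene were left out of library sizes and tests, and genes took 75.7% to 76.2% of counted reads in the 6 libraries. Gene symbols and coordinates are those of GENCODE M21 (GRCm38), matched by gene identifier, and 95 identifiers had none.

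Counts were fitted with edgeR (4.0.16) in R (4.3.3): TMM normalisation, the edgeR filter by expression, 1 coefficient for each of the 6 groups, a robust quasi-likelihood fit with 12 residual degrees of freedom, and Benjamini-Hochberg adjustment at 0.05 over 18469 genes. The common biological coefficient of variation was 2.98%. Standard errors are the absolute log2 fold change divided by the square root of the quasi-likelihood F statistic. They are not dependable where a group has almost no reads. Chi-square over degrees of freedom between replicate pairs of the 6 libraries was 1.61 to 2.53, above sampling noise, so no library was a copy of another. Levels are counts divided by DESeq2 (1.42.0) size factors, and single values were also compared with a two-sided exact permutation test. Ratios of summed reads have exact 95% counting intervals, and a group with no read was set to 3 counts per library. The fit was tested on simulated counts. Promoter windows of RefSeq (GRCm38.p6) were searched for motifs on both strands. They run from 250 bases before to 50 after a start.

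The members and the gene lists were chosen with earlier results of these data known, so lists are described by counts and medians without a test. Named are Ezr, Rdx and Msn, the 10 largest rises and falls among coding genes that passed, with no overlap and a mean normalised count of at least 50, up to 3 rises and 3 falls of each list and members needed to account for it, the 5 largest positive and negative interactions, the 3 largest opposite changes either way (only Bfsp1 met the count for the fall in iEZR_CA cells), and 14 pluripotency and signalling genes. Some genes that this rule names are not reported here, and list counts and medians cover all tested members. Alternatives were DESeq2 (Wald test, and its size factors in edgeR), upper-quartile and ERCC scaling, no filter, at least 10 counts in every library, only the libraries of a contrast, and leaving out each library.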

Additional observations from a re-analysis of the deposited data

Results flagged for a closer look

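These genes had a 24 h change that differed between the lines by the interaction term (edgeR, 3 libraries in each of 4 groups, log2 scale), and no explanation was weighed. More positive in iEZR_CA than in WT cells were Ror1 (interaction 4.64, standard error 0.45, adjusted p = 9.8e-14), Clec4a1 (4.48, standard error 0.60, adjusted p = 4.3e-09) and Lmx1b (4.10, standard error 0.22, adjusted p = 1.4e-25). Clec4a1 fell in both lines and had 2 reads in all in the WT T24 libraries, so the size of its value depends on the prior count of the fit. The size of the value for Ror1 likewise rests on few reads, 4 in all in the iEZR_CA ESC libraries. The Nodal antagonist genes Lefty1 (4.05) and Lefty2 (3.36) and the GTPase gene Rac2 (3.03) followed. Ror1, Lmx1b, Lefty1, Lefty2 and Rac2 started lower in iEZR_CA than in WT ESCs, and Clec4a1 started higher. The naive factor genes Klf4 (2.15), Nanog (1.98) and Esrrb (1.17) fell by less than in WT.

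More negative in iEZR_CA cells were the formative genes Otx2 (-1.19), Pou3f1 (-1.56) and Lef1 (-2.43) and the ERK feedback gene Spry4 (-1.35), which rose in both lines. For Pou3f1 the adjusted p was 0.045 (edgeR). Bfsp1 (-3.05) fell in iEZR_CA cells and rose in WT cells. Grhl2 (-3.22), Thbs1 (-3.52) and Pax8 (-4.55) rose in both lines, and Cdh20 (-3.58) fell in iEZR_CA cells without a called change in WT. Bfsp1, Grhl2, Thbs1, Pax8 and Cdh20 started higher in iEZR_CA than in WT ESCs. The mean of Cdh20 was 253 in iEZR_CA ESCs and 14.7 in WT ESCs. Means of Bfsp1 were 79.9 in iEZR_CA ESCs and 24.2 in WT ESCs, and 34.3 and 86.6 at T24. The long noncoding RNA gene Gm30717 had an interaction of -4.87 (standard error 1.98, edgeR, adjusted p = 0.045). It had no read in any iEZR_CA T24 library, so this value and its standard error depend on the prior count of the fit. Gm30717 also fell in WT cells, from a mean of 23.4 to 0.67, a log2 fold change of -4.95. Its mean in iEZR_CA ESCs was 109. Its fall in iEZR_CA cells was at least 35.9-fold against the floor of 3 counts.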

How the results depend on the processing

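No paired analysis was possible because the labels carry no replicate numbers. Under ERCC scaling 6593 genes were called against 10340, 2416 interactions against 7081, and the list medians were -1.43 for the naive genes, 2.32 for the formative genes, -0.76 for the LIF and STAT3 pathway, -0.28 for the WNT targets and 1.20 for the ERK targets, a shift near that of all genes. Of 184 named genes, 154 kept their status under ERCC scaling, that is, the same call and direction or no call in either fit. Another 28 lost the call (Ezr, Msn, Cdh1 and Rab5b among them), and Spry2 (0.040) and Amotl2 (0.058) changed sign without passing. Under the other alternatives no named gene that passed in either fit changed sign. Signs of genes that passed in neither were not compared. The filter of 10 counts left 132 of the named genes, and the libraries of the contrast alone left 180. A filter of 10 counts in each library removes genes that are silent at one time. It left 1062 genes called beyond 2-fold against 2750, and the medians were 2.10 (formative), -0.74 (LIF and STAT3), 1.02 (ERK) and 0.083 for the 9 WNT targets left, of the opposite sign to the -0.43 of the 16, since Sp5, Cdx1 and others were removed. With the libraries of the contrast alone, the WNT target median was -0.14 over 15 genes and the ERK median 1.06, which was 1.06 with no filter and 1.07 with upper-quartile scaling. Leaving out 1 library at a time gave 9410 to 9997 genes called, 2662 to 2802 beyond 2-fold and 6441 to 6920 interactions, with medians of -1.61 to -1.55 (naive), 2.12 to 2.21 (formative), -0.96 to -0.86 (LIF and STAT3), -0.51 to -0.34 (WNT) and 1.04 to 1.07 (ERK). DESeq2 called 9463 genes. Low-count genes limit what can be seen: of the genes tested, 611 had at most 3 reads in every ESC library and 387 at T24.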

Other observations

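Levels at 48 h in the same line are given for some of the named genes, chosen after their values were seen. The levels are means of 3 libraries with the SD, and the T48 libraries share the line and the series with the T24 libraries. The T24 against ESC contrast does not compare the T48 libraries, but they entered the same fit, and so its filter, normalisation and estimate of spread. The following 4 risers were higher again at T48. Fgf5 stood at 122 normalised counts at T24 and 1336 ± 34.7 at T48, Pou3f1 at 688 and 6054 ± 312, Lin28a at 2607 and 14176 ± 212, and Myrf at 2582 and 6968 ± 172. Dusp6 and Utf1 stood at nearly the T24 level, with 1588 and 1569.9 ± 66.4 for Dusp6 and 10654 and 10855 ± 79.5 for Utf1. Of the naive genes, Nanog was at 8254 and 1106 ± 32.9, Klf4 at 1533 and 305 ± 16.7, and Esrrb at 12002 and 2596 ± 91.7.

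For Nr0b1, Rac2 and Prss46 the level at T24 was higher than at both other times. Nr0b1, the naive gene that rose, went back from 6388 at T24 to 1030.5 ± 47.8 at T48, against 1271 ± 83 in the ESC group. Rac2 was at 35.5 ± 4.86, then 129, then 32.1 ± 3.18. Prss46, with no read in the ESC group, was at 198 and then 43.7 ± 4.81. The fall from T24 to T48 passed for Nr0b1 (edgeR, log2 fold change -2.63, adjusted p = 2.6e-39). It also passed for Rac2 (edgeR, -2.01, adjusted p = 8.0e-19) and Prss46 (edgeR, -2.18, adjusted p = 2.5e-21). These genes were picked for that shape after their values were seen, and the pattern as a whole was not tested.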
